A study of Homo sapiens with 12 samples.

Results

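The interleukin 1 (IL-1) genes described here are the ligands IL1A, IL1B and IL18, the receptor antagonist IL1RN, the receptor chains IL1R1, IL1RAP and IL1R2, and CASP1, the protease caspase 1. The members were chosen by gene name, and every probe annotated to them was read, which gave 8 genes and 14 probes of the 47323 on the array. JIMT1 is an established HER2-positive breast cancer cell line without hormone receptors that resists trastuzumab, and its RNA was measured on Illumina HumanHT-12 v4 arrays. There were 6 groups with 2 biological replicates each, 12 arrays in all. MG4d and MG7d cells grew for 4 and 7 days on Matrigel, a gel of basement membrane proteins that was dissolved with Dispase before lysis. PH4d and PH7d cells grew for 4 and 7 days over polyHEMA, a coating that prevents attachment. The xenograft tumors came from cells injected with Matrigel into the fat pads of nude mice, which lack mature T cells, and were taken after 43 days. The 2D7d monolayers grew for 7 days. The labels name no transgene or drug for any group. Growth in the gel, its lower serum and the Dispase step cannot be told apart.

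IL-1 alpha and IL-1 beta bind the receptor IL1R1, which then recruits the accessory chain IL1RAP and signals through the adaptor MYD88 to the transcription factor NF-kB. IL1RN encodes an antagonist that occupies IL1R1 without recruiting the accessory chain, and IL1R2 is a decoy receptor that does not signal. IL-1 beta and IL-18 are made as precursors that caspase 1 cleaves after inflammasomes assemble, so RNA levels do not show how much active cytokine there was. In epithelia IL-18 and IL-1 alpha are known as cytokines stored ahead of injury.

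Each array gave 1 linear bead intensity per probe, from which no background had been taken, and a detection p-value against the negative controls of the same array. A probe was called detected at a detection p under 0.01, and 13952 to 18430 probes were detected per array. The polyHEMA replicates stood apart from each other. Between their replicates, 4193 of 10970 genes in PH4d and 3345 in PH7d lay at least 2-fold apart, against 15 to 216 genes in the other 4 groups. All 6 epithelial and HER2-type markers (ERBB2, KRT8, KRT18, KRT19, EPCAM, CDH1) were detected on every array. PGR was detected on no array, whereas the ESR1 probe was detected on 12 of 12 at 131 to 344 units. The array medians over all probes were 95.1 to 107 units. The line is described as lacking estrogen receptor, and RNA read by 1 probe at this level does not show whether receptor protein was made.

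Fewer of these genes were detected in 2D7d cells than in any other group. Over all probes, too, the 2D7d arrays detected few, 14530 to 18430 on the arrays of the other groups and 13952 and 14784 on those of 2D7d, and the part of this in the members' counts was not tested. IL18 alone was detected on both 2D7d arrays. By any probe, MG4d had 2 members detected on both arrays, MG7d had 3, PH4d had 4, PH7d had 5 and the xenografts had 4. Besides IL18, all 4 polyHEMA arrays detected IL1RN, IL1R1 and CASP1, both MG7d arrays detected IL1A and IL1RAP, and both xenograft arrays detected IL1R1, IL1RAP and CASP1. For the tests, 6 members passed the detection filter (detected on both arrays of at least 1 group) out of 10970 genes in all. IL1B and IL1R2 did not pass it and were not tested.

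**Figure D1:**
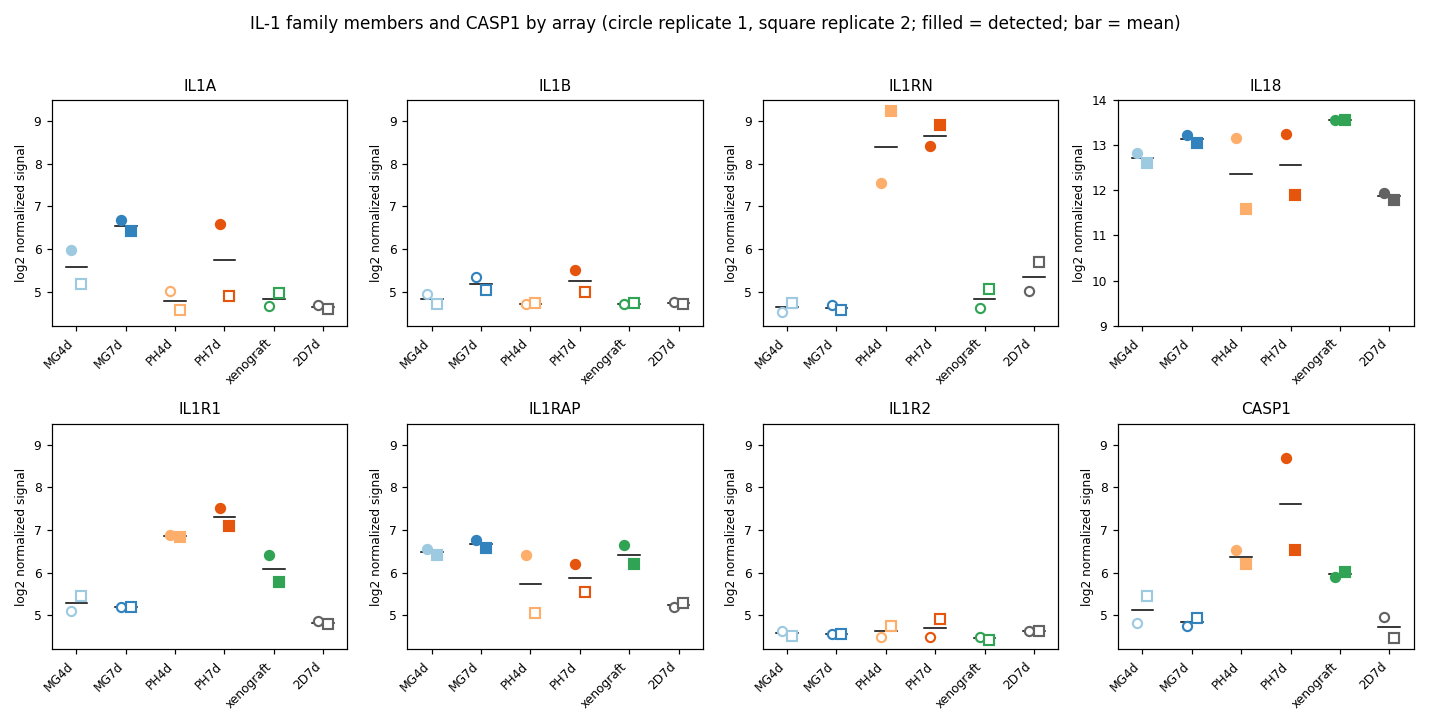
Normalized log2 signal of each member on the 12 arrays, by group, with circles for replicate 1, squares for replicate 2, filled symbols for detected arrays and a bar at the group mean. IL1B and IL1R2 are shown by the brightest of their probes although neither was tested, and the axis of IL18 is higher than that of the other panels. IL1RN was detected on the 4 polyHEMA arrays, where it lay between 7.54 and 9.25.

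A gene was called changed at a Benjamini-Hochberg adjusted p under 0.05 (limma, over all 10970 genes) together with a difference of at least 2-fold. In MG4d against 2D7d, 0 of the 6 members were called, 1 having an unadjusted p under 0.05, where 10.2% of all genes were called higher and 11.5% lower. In MG7d against 2D7d, IL1A and IL1RAP rose, which is 2 of 6, beside 10.8% of all genes higher and 10.3% lower. In PH4d against 2D7d, IL1RN and IL1R1 rose, 2 of 6, beside 2.58% of all genes higher and 1.84% lower. In PH7d against 2D7d, IL1RN, IL1R1 and CASP1 rose, 3 of 6, beside 3.87% of all genes higher and 2.36% lower. In xenograft against 2D7d, IL18 and IL1R1 rose, 2 of 6, beside 16.4% of all genes higher and 14.7% lower. Apart from IL18, the tested members were undetected on both 2D7d arrays and passed the filter only through groups where they were brighter, so they could not have been called lower than 2D7d. All 5 comparisons share the same 2D7d arrays. They also share 1 spread per gene over all 6 groups, into which the split of the polyHEMA replicates enters. In these bulk samples, a higher share of expressing cells and more RNA per cell cannot be told apart.

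**Figure D2:**
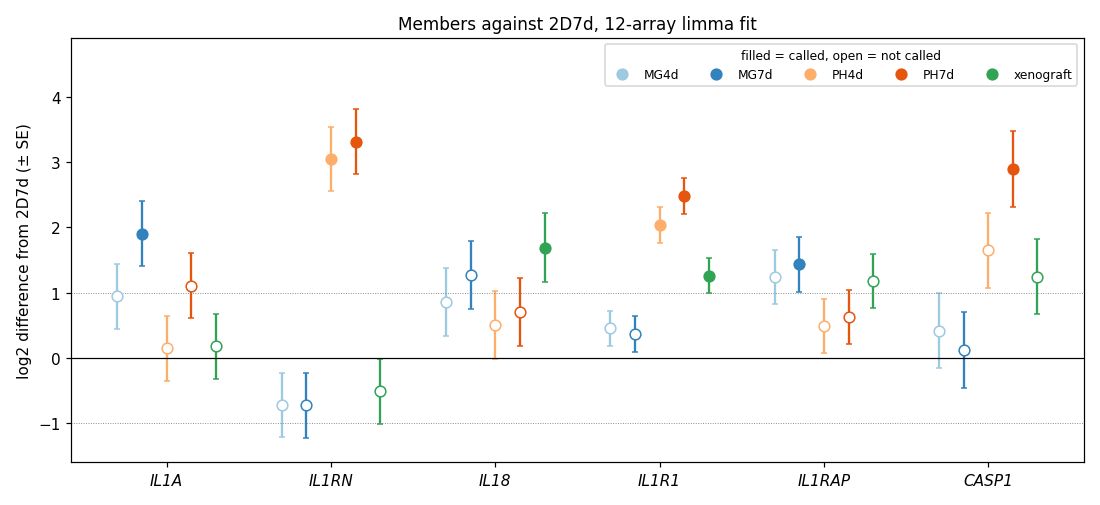
Fitted log2 difference from 2D7d, with its standard error, for the 6 tested members in 5 groups, where filled points passed the test and open points did not. The dotted lines mark a 2-fold difference. IL18 alone was detected on both 2D7d arrays, so every other point is a difference from a background signal, whose size and order are not measured. The open points of IL1RN in MG4d, MG7d and the xenografts compare groups in which no array detected it.

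The ligand IL1A (interleukin 1 alpha) had its highest mean in MG7d. Its probe read 143 and 111 units in MG4d, 196 and 166 in MG7d, 104 and 76.7 in PH4d, 174 and 90.9 in PH7d, 89.9 and 96.7 in the xenografts, and 89.3 and 84.8 in 2D7d. Both MG7d arrays, 1 MG4d array and 1 PH7d array detected it, and the other 8 did not. PH7d replicate 1 was brighter than MG7d replicate 2, so PH7d overlapped with MG7d. The MG7d mean was 6.55 ± 0.18 on the log2 scale (SD, n = 2), against 4.64 ± 0.07 in 2D7d. Since neither 2D7d array detected IL1A, the fold is a lower bound, set by the dimmest detected signal on those arrays. By that bound IL1A was at least 1.30-fold higher in MG7d than in 2D7d. The fitted log2 difference, taken from the background signal, was 1.90 (limma adjusted p = 0.0365). Here and below, adjusted p-values and the 2-fold limit belong to the fitted differences, not to the bounds printed beside them. A called gene can therefore have a bound under 2-fold. In MG4d it averaged 5.58 against 4.64 in 2D7d (adjusted p = 0.151), and in PH7d 5.75 against 4.64 (adjusted p = 0.202). In PH7d the replicates lay 3.22-fold apart, more than the difference from 2D7d. The MG7d call rested on all 4 arrays, although the log2 difference stayed between 1.78 and 2.03 without any 1 of them: leaving out MG7d replicate 1 or 2 gave an adjusted p of 0.198 or 0.135, and leaving out 2D7d replicate 1 or 2 gave 0.109 or 0.205. It was also lost for IL1A without background correction (log2 difference 0.96), from the authors' processed values (0.47) and without the detection filter (adjusted p = 0.0590). Without PH7d replicate 2, by contrast, IL1A was called in PH7d (log2 difference 1.95, adjusted p = 0.0118).

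IL1B, the ligand that caspase 1 cleaves, was near background on all arrays. Its probe read 102 and 93.1 units in MG4d, 117 and 103 in MG7d, 91.0 and 85.0 in PH4d, 116 and 94.1 in PH7d, 92.5 and 86.0 in the xenografts, and 92.5 and 91.5 in 2D7d. PH7d replicate 1 was the only array to detect IL1B, although MG7d replicate 1 was as bright. On the normalized scale both MG7d and both PH7d arrays lay above the 2D7d arrays, and the other groups overlapped with 2D7d. No fold is given, since no group exceeded the dimmest detected signal of 2D7d.

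IL18, the other ligand activated by caspase 1, was bright in every group and was detected on all 12 arrays. It read 8992 and 5604 units in MG4d, 9559 and 8168 in MG7d, 8371 and 3176 in PH4d, 8063 and 4303 in PH7d, 10262 and 9951 in the xenografts, and 4451 and 3833 in 2D7d. On the normalized log2 scale the xenografts stood highest (13.55 ± 0.01), followed by MG7d (13.13 ± 0.13), MG4d (12.71 ± 0.14), PH7d (12.56 ± 0.95), PH4d (12.36 ± 1.11) and 2D7d (11.86 ± 0.10, SD, n = 2 each). The top 3 groups did not overlap with one another, while both polyHEMA groups spanned the range of MG4d and overlapped with MG7d and 2D7d. IL18 rose 3.22-fold in the xenografts over 2D7d (log2 difference 1.69 ± 0.52 SE, adjusted p = 0.0382). In MG7d it was 2.42-fold above 2D7d (1.27 ± 0.52, adjusted p = 0.0836), with both arrays above both 2D7d arrays, but this did not pass the test. That SE comes from the spread over all 6 groups, including the wide polyHEMA replicates. In both polyHEMA groups replicate 1 was brighter than replicate 2, by 2.97-fold in PH4d and 2.54-fold in PH7d. Without PH4d replicate 1 the log2 difference of PH4d from 2D7d changed sign, -0.28 against 0.50 with both replicates, and neither was called. Without any 1 array the log2 difference of IL18 in the xenografts stayed between 1.61 and 1.76, but the call was lost without xenograft replicate 1 (adjusted p = 0.151) or 2 (0.140), and without 2D7d replicate 1 (0.107) or 2 (0.170). Scaling the arrays to equal medians gave IL18 a log2 difference of 1.24 there (adjusted p = 0.0542), and leaving out the detection filter an adjusted p of 0.0699.

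IL1RN encodes the IL-1 receptor antagonist, and its signal split polyHEMA from every other group. Its brightest probe read 80.0 and 94.0 units in MG4d, 89.7 and 81.1 in MG7d, 293 and 614 in PH4d, 418 and 524 in PH7d, 86.7 and 99.7 in the xenografts, and 101 and 121 in 2D7d. All 4 polyHEMA arrays detected it, all 8 others did not, and the 2 sets did not overlap. On the log2 scale it averaged 8.39 ± 1.20 in PH4d and 8.66 ± 0.35 in PH7d, against 5.35 ± 0.49 in 2D7d (SD, n = 2 each). Relative to 2D7d, PH4d had at least 4.70-fold more IL1RN (adjusted p = 0.0108), and PH7d at least 5.64-fold more (adjusted p = 0.00598). Both calls were lost without 2D7d replicate 1, with adjusted p-values of 0.109 for PH4d and 0.0639 for PH7d, and held without any other single array of these groups. With only the compared groups in the fit, the adjusted p of IL1RN was 0.199 in PH4d and 0.0697 in PH7d, and the authors' processed values gave 0.0556 in PH4d. In PH4d, the polyHEMA replicate that was brighter for IL1RN, replicate 2, was the dimmer one for IL18. The other 2 IL1RN probes stayed undetected on all 12 arrays, at 82.4 to 102 units and 72.6 to 89.9 units. One of these undetected probes is annotated to the same transcript as the bright probe, so the rise rests on 1 probe of 3.

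The starts of IL1RN differ in the letters in front of them. RefSeq (GRCh38.p14) gave 13 start windows for 6 of the 8 members, none of which is for IL18 or CASP1. The windows, which run from 250 bases before to 50 bases after a start, were searched on both strands for the NF-kB consensus, the interferon-stimulated response element core TTTCNNTTT and the STAT core TTCNNNGAA. Of 35116 windows of all genes, 5.91% held the NF-kB consensus, 10.5% the response element core and 7.66% the STAT core. No member window held the NF-kB consensus. Among the 3 IL1RN windows, 2 overlapping ones held the same 2 matches of the response element core, 121 to 113 and 12 to 4 bases before the start shown, and the other held none. Of the 4 IL1R1 windows, 1 held a STAT core, 47 to 39 bases before its start, and 3 held no motif. A STAT core also stood in the IL1B window, 180 to 172 bases before its start, and 1 IL1A window held a response element core after its start. No match overlapped one of another motif. The sequences are printed because IL1RN and IL1R1 were the members that rose in both polyHEMA groups, with the 250 bases before each start, 5′ to 3′, and matches in capitals. In these windows of 250 bases, 9.2% of all starts held the response element core and 6.57% the STAT core. A match describes the letters only, and the arrays do not tell which start was in use.
IL1RN, chr2:113117721-113117970, plus strand: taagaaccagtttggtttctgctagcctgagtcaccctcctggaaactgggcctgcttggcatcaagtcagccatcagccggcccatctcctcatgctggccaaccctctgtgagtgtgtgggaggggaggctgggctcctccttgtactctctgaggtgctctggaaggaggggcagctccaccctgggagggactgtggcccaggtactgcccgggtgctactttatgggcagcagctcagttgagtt
IL1RN, chr2:113127239-113127488, plus strand: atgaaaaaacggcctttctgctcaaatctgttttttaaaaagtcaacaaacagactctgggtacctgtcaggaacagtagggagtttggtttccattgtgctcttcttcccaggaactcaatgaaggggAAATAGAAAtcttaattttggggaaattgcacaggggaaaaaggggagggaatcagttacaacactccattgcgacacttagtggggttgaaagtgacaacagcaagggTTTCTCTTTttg
IL1R1, chr2:102142056-102142305, plus strand: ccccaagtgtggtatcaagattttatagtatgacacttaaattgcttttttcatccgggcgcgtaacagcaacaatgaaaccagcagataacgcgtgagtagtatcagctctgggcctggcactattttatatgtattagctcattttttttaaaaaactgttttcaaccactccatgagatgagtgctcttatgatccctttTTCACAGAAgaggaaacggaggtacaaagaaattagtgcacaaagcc

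The signaling receptor IL1R1 was detected in polyHEMA and also in the xenografts. It read 108 and 118 units in MG4d, 112 and 109 in MG7d, 214 and 156 in PH4d, 264 and 182 in PH7d, 179 and 128 in the xenografts, and 96.8 and 94.8 in 2D7d. All polyHEMA and xenograft arrays detected it, and no Matrigel or 2D7d array did. On the log2 scale PH7d averaged 7.31 ± 0.29, PH4d 6.86 ± 0.03 and the xenografts 6.09 ± 0.45, against 4.83 ± 0.06 in 2D7d (SD, n = 2 each), and none of these 4 groups overlapped. Relative to 2D7d, IL1R1 was at least 1.63-fold higher in PH4d (adjusted p = 0.00542), and in PH7d at least 2.22-fold higher (adjusted p = 0.00164). In the xenografts it was called as well (adjusted p = 0.0172), yet its mean did not exceed the dimmest detected signal of the 2D7d arrays, so no lower bound above 1-fold can be given. The polyHEMA replicates of IL1R1 lay only 1.03-fold apart in PH4d and 1.33-fold in PH7d. The PH7d call held without any 1 array of PH7d or 2D7d, and the PH4d call was lost only without 2D7d replicate 1 (adjusted p = 0.0556). The xenograft call was lost without xenograft replicate 1 (0.127), 2D7d replicate 1 (0.0727) or 2D7d replicate 2 (0.114). With only the compared groups in the fit, the adjusted p of IL1R1 was 0.162 in PH4d and 0.0742 in PH7d, and array weights gave 0.162 in PH4d. From the authors' processed values the log2 differences of IL1R1 were 0.52 in PH4d, 0.71 in PH7d and 0.28 in the xenografts, all under 2-fold.

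By its brightest probe IL1RAP, the accessory chain shared by receptors of the family, was detected on every Matrigel array. Its brightest probe read 179 and 154 units in MG4d, 205 and 177 in MG7d, 173 and 96.6 in PH4d, 148 and 109 in PH7d, 198 and 152 in the xenografts, and 107 and 111 in 2D7d. Every Matrigel and xenograft array detected it, as did replicate 1 but not replicate 2 of both polyHEMA groups, and no 2D7d array did. IL1RAP averaged 6.68 ± 0.14 in MG7d, against 5.25 ± 0.07 in 2D7d (log2, SD, n = 2 each), and was at least 1.43-fold higher (adjusted p = 0.0435). In MG4d it was at least 1.25-fold higher (adjusted p = 0.0550) and in the xenografts at least 1.20-fold higher (adjusted p = 0.0515) than in 2D7d, neither of which passed. The log2 difference in MG7d stayed between 1.33 and 1.53 without any 1 array, but the call was lost without MG7d replicate 1 (0.205) or 2 (0.140) and without 2D7d replicate 1 (0.124) or 2 (0.206). It was lost for IL1RAP too without background correction (log2 difference 0.68), with an offset of 50 (0.92), from the authors' processed values (0.36) and without the detection filter (adjusted p = 0.0693). In PH4d, IL1RAP was called without replicate 2 (log2 difference 1.17, adjusted p = 0.0277) and had the opposite sign without replicate 1 (-0.18, adjusted p = 0.907). A second IL1RAP probe was detected on 8 arrays, at 95.2 to 144 units over all 12, and its polyHEMA replicates lay close together, at 140 and 115 units in PH4d and 120 and 125 in PH7d. The third probe stayed at 60.3 to 80.1 units and was never detected.

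The decoy receptor IL1R2 was detected on no array, at 66.6 to 91.0 units, the highest being PH7d replicate 2. A level below the background of these arrays cannot be told from no RNA.

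CASP1, the protease that processes IL-1 beta and IL-18, was highest in PH7d, and mostly in 1 of its replicates. Its brightest probe read 96.1 and 118 units in MG4d, 93.1 and 99.2 in MG7d, 183 and 127 in PH4d, 488 and 143 in PH7d, 146 and 141 in the xenografts, and 99.9 and 75.9 in 2D7d. All polyHEMA and xenograft arrays detected it, and no Matrigel or 2D7d array did. On the log2 scale it averaged 7.61 ± 1.53 in PH7d, 6.36 ± 0.23 in PH4d and 5.96 ± 0.08 in the xenografts, against 4.72 ± 0.34 in 2D7d (SD, n = 2 each). CASP1 was at least 2.74-fold higher in PH7d than in 2D7d (adjusted p = 0.0202), although the PH7d replicates lay 4.48-fold apart. In PH4d (at least 1.15-fold, adjusted p = 0.142) and in the xenografts (adjusted p = 0.103) both arrays lay above both 2D7d arrays, but neither difference passed. The PH7d call was lost without 2D7d replicate 1 (0.0947) or 2 (0.151), and held without PH7d replicate 1 or 2, with log2 differences of 1.81 and 3.98. The authors' processed values gave CASP1 an adjusted p of 0.0783 in PH7d, and a fit of only the compared groups 0.206. A second CASP1 probe read 419 and 122 units in PH7d, 153 and 124 in PH4d and 128 and 130 in the xenografts, against 68.4 and 81.6 in 2D7d. It thus showed the same bright PH7d array, whereas the third CASP1 probe stayed at 62.3 to 79.9 units and was never detected.

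**Figure D3:**
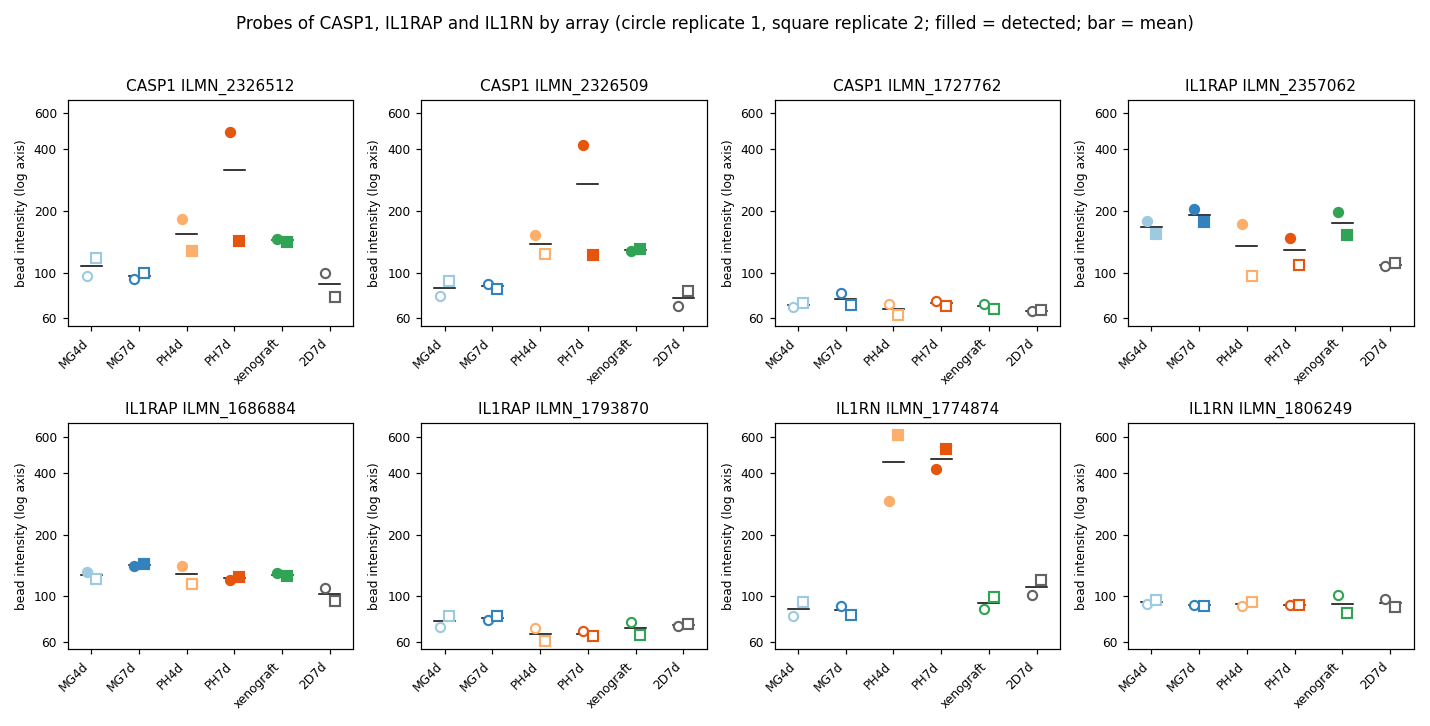
Bead intensity on a log axis of the 3 CASP1 probes, the 3 IL1RAP probes and the 2 brightest of the 3 IL1RN probes on the 12 arrays, with circles for replicate 1, squares for replicate 2, filled symbols for detected arrays and a bar at the group mean. PH7d replicate 1 stands at 488 and 419 units on the upper CASP1 probes, and IL1RN leaves background on 1 probe only.

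Between polyHEMA and Matrigel cultures of the same age, IL1RN differed most among the members. In PH4d against MG4d, IL1RN and IL1R1 rose, 2 of 6 members, where 8.33% of all genes were called higher and 3.91% lower. In PH7d against MG7d, IL1RN, IL1R1 and CASP1 rose, 3 of 6, where 5.57% of all genes were called higher and 3.84% lower. No Matrigel array detected these 3 members, which passed the filter only through other groups. They could therefore not have been called lower in polyHEMA than in Matrigel. IL1RN was at least 6.05-fold higher in PH4d than in MG4d (adjusted p = 0.00192) and at least 7.79-fold higher in PH7d than in MG7d (adjusted p = 0.00185). IL1R1 was at least 2.09-fold higher at 4 days (adjusted p = 0.00632) and at least 3.07-fold higher at 7 days (adjusted p = 0.00230), and CASP1 at least 3.78-fold higher at 7 days (adjusted p = 0.0180). IL1A had log2 differences of -0.79 at 4 days and -0.80 at 7 days (adjusted p = 0.328 and 0.325) and IL1RAP of -0.75 and -0.81 (adjusted p = 0.275 and 0.248), none of which passed the test. Without PH4d replicate 1, the log2 difference of IL1RAP in PH4d against MG4d was -1.42. Without PH7d replicate 1, that of IL1A in PH7d against MG7d was -1.64. Each of these rests on 1 polyHEMA array. The second IL1RAP probe, which was not in the fit, did not show the difference at 4 days. With both replicates, its log2 difference was 0.19 at 4 days and -0.10 at 7 days. IL1RN stayed called at both days without any 1 of the arrays compared. IL1R1 was lost at 4 days without MG4d replicate 1 (0.0697), and CASP1 at 7 days without MG7d replicate 1 (0.129) or 2 (0.105).

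No member was called between 7 and 4 days. In MG7d against MG4d, 0 of 6 members were called, with none at an unadjusted p under 0.05, where 0.893% of all genes were. In PH7d against PH4d, 0 of 6 were called, again with none at an unadjusted p under 0.05, and 0% of all genes were. This comparison did not pair the replicates, although the replicate differences of PH4d and PH7d correlated (r = 0.87). The split between the polyHEMA replicates therefore stayed in its error. With a replicate block, 1 shift common to all 6 groups, 0 genes were called there as well. IL1A had 0.96 ± 0.50 more in MG7d than in MG4d (log2 difference ± SE), with both MG7d arrays above both MG4d arrays (adjusted p = 0.495). CASP1 had 1.25 ± 0.58 more in PH7d than in PH4d (adjusted p = 1.00). The test of the difference between the change over time in Matrigel and that in polyHEMA called no member either (0 of 6, none at an unadjusted p under 0.05, where 0.0273% of all genes were), with CASP1 nearest at -1.54 ± 0.82 for the Matrigel change minus the polyHEMA change (adjusted p = 0.989).

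Set against the xenografts, the Matrigel cultures showed no called member. In MG4d against xenograft, 0 of 6 were called, 1 having an unadjusted p under 0.05, beside 10.6% of all genes in either direction. In MG7d against xenograft, 0 of 6 were called, 2 having an unadjusted p under 0.05, beside 5.76% of all genes. These 2 were IL1A, at least 2.00-fold higher in MG7d than in the xenografts (adjusted p = 0.0859), and IL1R1, at least 1.31-fold lower in MG7d (adjusted p = 0.108). In PH4d against xenograft, IL1RN rose, 1 of 6, beside 5.16% of all genes, by at least 7.19-fold (adjusted p = 0.00344). In PH7d against xenograft, IL1RN and IL1R1 rose, 2 of 6, beside 7.35% of all genes. IL1RN was at least 8.64-fold higher (adjusted p = 0.00184), and IL1R1, detected in both groups, was 2.34-fold higher (log2 difference 1.22 ± 0.27 SE, adjusted p = 0.0270). No xenograft array detected IL1RN, which passed the filter only through polyHEMA, so it could not have been called lower there than in the xenografts. IL18 had lower means in all 4 culture groups than in the xenografts, with log2 differences of -0.83 for MG4d, -0.41 for MG7d, -1.19 for PH4d and -0.98 for PH7d, none of which was called. IL1RN stayed called in both polyHEMA groups without any 1 of the arrays compared. IL1R1 in PH7d was lost without PH7d replicate 1 (0.0573) or xenograft replicate 2 (0.244). Without PH7d replicate 2, the log2 differences of PH7d from the xenografts were 1.77 for IL1A and 2.73 for CASP1. Without PH4d replicate 1, those of PH4d were -1.97 for IL18 and -1.36 for IL1RAP. Each of these rests on 1 polyHEMA array. For the second IL1RAP probe the log2 difference of PH4d from the xenografts was 0.20 with both replicates.

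Markers of other cell types were read beside the members. The cultures were grown from the JIMT1 line alone, so only the xenografts could hold host cells, which are mouse cells. Of 10 monocyte and macrophage markers, 3 were detected on both arrays in MG4d, MG7d and 2D7d and 4 in PH4d, PH7d and the xenografts. PTPRC, CD163, LYZ, TYROBP and FCER1G were detected on no array. The summed normalized signal of that list was 828 to 864 for MG4d, 1044 to 1054 for MG7d, 1006 to 1522 for PH4d, 1012 to 1355 for PH7d and 1368 to 1403 for the xenografts, against 993 to 1022 in 2D7d. Of 6 neutrophil markers, 1 (FCGR3B) was detected in every group, with sums of 261 to 406 in the other 5 groups and 398 to 442 in 2D7d, and CSF3R, S100A12, MPO, ELANE and CEACAM8 were detected on no array. Of 6 fibroblast markers, 3 (COL1A1, DCN, LUM) were detected on both xenograft arrays, with a sum of 521 to 674 there, against 1 (COL1A1) and 218 to 270 in 2D7d. Within the list the markers went different ways. AIF1 read 333 and 350 units in the xenografts, against 116 and 132 in 2D7d, while CD14 read 135 and 146 in the xenografts, against 201 and 209 in 2D7d. In polyHEMA, where IL1RN was bright, CD14 read 217 and 421 units in PH4d and 313 and 453 in PH7d, and in MG7d, where IL1RN was not detected, 398 and 331. The part of host cells in the xenograft results was not tested, nor was binding of mouse RNA to the human probes.

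Other IL-1 family genes and the pathway around the receptor were read from lists of known genes, described by counts and medians. None of the 7 other ligands (IL33, IL36A, IL36B, IL36G, IL36RN, IL37, IL1F10) passed the detection filter. Of 8 other receptors and decoys, 5 passed. IL1RAPL1, an accessory-like receptor known mostly from neurons, read 694 and 505 units in MG4d and 1049 and 1089 in MG7d, against 209 and 157 in 2D7d. IL1RAPL1 rose 3.70-fold in MG4d (adjusted p = 0.0267) and 7.05-fold in MG7d (adjusted p = 0.0176) over 2D7d, and it fell in polyHEMA relative to Matrigel, with log2 differences of -2.42 at 4 days and -3.45 at 7 days (adjusted p = 0.00929 and 0.00256). SIGIRR, an inhibitory receptor of the family, fell relative to 2D7d, with log2 differences of -1.19 in MG7d and -1.57 in the xenografts (adjusted p = 0.0401 and 0.0157). The median of the 5 lay between -0.31 and 0.24 over the 5 comparisons with 2D7d.

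Of 14 genes of IL-1 receptor signaling, 11 were tested. MYD88, the adaptor, read 226 and 174 units in MG4d, 226 and 174 in MG7d, 706 and 1176 in PH4d, 738 and 1014 in PH7d, 544 and 436 in the xenografts, and 251 and 377 in 2D7d. It fell relative to 2D7d, with log2 differences of -1.25 in MG4d and -1.39 in MG7d (adjusted p = 0.0468 and 0.0415), and rose 6.79-fold in PH4d over MG4d and 7.19-fold in PH7d over MG7d (adjusted p = 0.00270 and 0.00311). CHUK, a kinase of the IKK complex, rose 3.71-fold in MG4d (adjusted p = 0.0319). IRAK2, a receptor-associated kinase, fell by 1.60 on the log2 scale in the xenografts (adjusted p = 0.0297). Against 2D7d, 1 of the 11 was called higher and 1 lower in MG4d, where 10.2% and 11.5% of all genes were, so these counts were near the background. In PH4d and PH7d 0 of the 11 were called, where 2.58% and 3.87% of all genes were called higher and 1.84% and 2.36% lower.

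The inflammasome list had 15 genes, of which 6 were tested. AIM2, a sensor of cytosolic DNA that activates caspase 1, read 145 and 133 units in MG4d, 163 and 158 in MG7d, 242 and 179 in PH4d, 364 and 170 in PH7d, 126 and 125 in the xenografts, and 103 and 95.9 in 2D7d. As with CASP1, PH7d replicate 1 was the brightest array. Relative to 2D7d, AIM2 was higher by at least 1.08-fold in MG7d (adjusted p = 0.0365), 2.01-fold in PH4d (0.00914) and 2.64-fold in PH7d (0.00348). NLRP3, the sensor best known for IL-1 beta release, was detected on both MG7d and both 2D7d arrays and on 1 MG4d array, and on no polyHEMA or xenograft array. It was at least 3.20-fold lower in PH4d (adjusted p = 0.00357), at least 3.25-fold lower in PH7d (0.00286) and at least 3.73-fold lower in the xenografts (0.000529) than in 2D7d. In MG4d, NLRP3 fell by 1.60 on the log2 scale relative to 2D7d (adjusted p = 0.0138). PYCARD, the adaptor between sensors and caspase 1, and GSDMD, the pore protein cleaved by it, fell in MG4d relative to 2D7d, with log2 differences of -1.28 and -1.34 (adjusted p = 0.0345 and 0.0367). CARD8, a sensor, was at least 1.74-fold higher in the xenografts than in 2D7d (adjusted p = 0.0475). The list's median was -0.26 for MG4d, 0.03 for MG7d, 0.84 for PH4d, 0.81 for PH7d and 0.53 for the xenografts, beside -0.07 to 0.05 over all genes. In each polyHEMA group 1 of the 6 was called higher and 1 lower. Of all genes, 2.58% were called higher and 1.84% lower in PH4d, and 3.87% and 2.36% in PH7d. In MG4d 3 of the 6 were called lower and 0 higher, beside 11.5% and 10.2% of all genes. AIM2 and CARD8 were undetected on both 2D7d arrays, so they could not have been called lower than 2D7d. NLRP3 was undetected on all polyHEMA and xenograft arrays and passed the filter only through other groups. It could therefore not have been called higher there than in 2D7d.

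Of 24 genes known to respond to IL-1 and NF-kB, 13 were tested. Relative to 2D7d, 7 rose and 0 fell in MG4d, 7 rose and 1 fell in MG7d, 1 rose and 0 fell in PH4d, 6 rose and 0 fell in PH7d, and 1 rose and 1 fell in the xenografts. The shares of all genes called higher in these comparisons were 10.2%, 10.8%, 2.58%, 3.87% and 16.4%, in the same order. The medians were 1.54, 1.36, 0.35, 1.37 and 0.40 in that order of groups, beside -0.07 to 0.05 over all genes. Genes undetected in 2D7d, CXCL8, CXCL2, CCL20 and SAA1 among them, passed the filter only through other groups. They could not have been called lower than 2D7d, and their differences from background enter the medians. CXCL8, a neutrophil chemokine, read 3334 and 3280 units in MG4d, 2571 and 1880 in MG7d, 200 and 162 in PH4d, 1275 and 296 in PH7d, 245 and 212 in the xenografts, and 132 and 113 in 2D7d. CXCL8 was at least 44.0-fold higher in MG4d (adjusted p = 0.0101), at least 29.5-fold in MG7d (0.0102) and at least 7.98-fold in PH7d (0.0126) than in 2D7d. TNFAIP3 and NFKBIA, feedback inhibitors of NF-kB, rose 5.22-fold and 4.53-fold in MG4d (adjusted p = 0.0135 and 0.0101), and CXCL2 was at least 2.86-fold higher there (0.0140). LCN2, an iron-binding protein of epithelia, read 1377 and 6428 units in PH4d and 13102 and 16969 in PH7d, against 885 and 886 in 2D7d, and rose in PH7d (log2 difference 4.25, adjusted p = 0.00359). NFKBIZ, a nuclear cofactor of NF-kB, was called in all 5 comparisons with 2D7d, from 2.91-fold in MG4d (0.0371) to 8.13-fold in PH7d (0.00461). PTGES, a prostaglandin synthase, fell relative to 2D7d, with log2 differences of -2.09 in MG7d and -1.68 in the xenografts (0.0261 and 0.0257). Of the 6 genes called in PH7d, CXCL8, NFKBIZ, IL6 and NFKBIA were called higher in both Matrigel groups as well, and LCN2 and SAA1 were not. Whether these genes followed the IL-1 members was not tested.

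**Figure D4:**
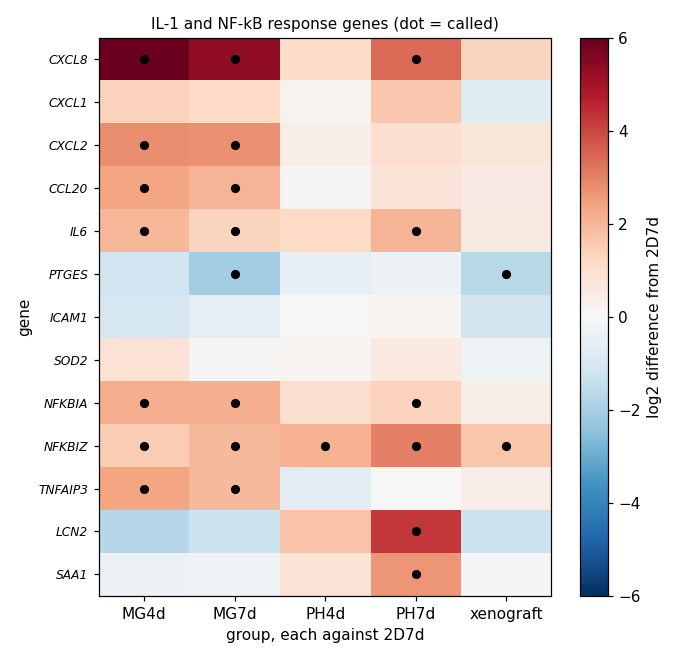
Log2 difference from 2D7d of the 13 tested genes of the IL-1 and NF-kB response list in 5 groups, as a colour scale, with a black dot where the difference was called. NFKBIZ carries a dot in every column and LCN2, at 4.25, in PH7d only. The colours of genes undetected in 2D7d, CXCL8, CXCL2, CCL20 and SAA1 among them, are differences from background.

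The genes whose pattern over the 12 arrays was most like that of each member were found by Pearson's r, as a description, since all arrays were shared and the polyHEMA replicate split entered every r. For IL1RN these were ISG20, an exonuclease induced by interferon (r = 0.98), APOL1 (0.98) and LINC00623 (0.98). For IL1R1 they were B2M, the light chain of MHC class I (0.98), CMPK2 (0.97) and B4GALT5 (0.97), and for CASP1 the lysosomal protease CTSL (0.96), BTN2A1 (0.94) and KMO (0.93). For IL1A they were CD55, a complement regulator (0.90), MSMO1 (0.89) and TBCA (0.89). For IL18 they were CDAN1, ZNF430 and SLC44A4 (1.00 each), and for IL1RAP IFT88, FER and IPO8 (0.98 each). Among the members themselves, CASP1 and IL1R1 (r = 0.91), IL18 and IL1RAP (0.88) and IL1RN and IL1R1 (0.82) ran most alike, while IL1RN and IL1RAP ran apart (-0.51).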

How the data were processed

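RNA of JIMT1 cells was measured on 12 arrays. The authors deposited bead intensity values with no background subtracted and, beside them, detection p-values for 47323 probes. A second deposited set, processed by the authors with lumi (its version is not given in the sources used here), is on a variance-stabilized scale close to log2, whose behaviour at low signal is unknown. There, 38524 values per array stood under another probe ID, so they were matched by rank and it served as an alternative only. Here neqc from limma 3.58.1 (R 4.3.3) corrected the intensities by normexp with an offset of 16, applied quantile normalization and took log2. Gene symbols came from the platform annotation, and probes with several symbols or none were not named. A probe was kept if both arrays of any group detected it (detection p under 0.01), and each of 10970 genes was represented by its brightest kept probe. lmFit and eBayes fitted 1 mean per group over the 12 arrays (6 residual and 3.17 prior degrees of freedom), and p-values were adjusted by Benjamini-Hochberg over all genes. Where no array of a group detected a gene, a fold is a bound, taken from the brighter group's mean over that group's dimmest detected probes (or the gene's own signal where higher), averaged over its arrays. The same script was run on simulated data with equal, independent spread in every group, so that run does not cover the polyHEMA split. All 8 members with each of their probes, the 3 genes most alike per member, and at most the 4 called genes with the largest fold per pathway list and comparison were named. The members and lists were chosen with earlier results of these data known. Tried alternatives were the background correction, offset, scaling, deposited processed values, detection filter, probe rule, arrays fitted, array weights and a replicate block. The labels call the replicates biological without saying that they were separate cultures, so p-values measure the spread between these samples. The number of samples limits the precision of every value. Each gene had 1 spread for all 6 groups. Where the polyHEMA replicates lay apart, it also widened the errors of comparisons without polyHEMA. Comparisons with polyHEMA were tested against a spread that includes the tighter groups. The labels do not say what a replicate number stands for, so the numbers were not taken to pair the arrays. Replicate differences nevertheless correlated with r over 0.1 in 8 of 15 pairs of groups, most between PH4d and PH7d (0.87).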

Additional observations from a re-analysis of the deposited data

Results flagged for a closer look

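Among the member probes that did not enter the tests, 3 were detected on at least 1 array at a level above both 2D7d arrays. The IL1B probe was detected on 1 array, PH7d replicate 1, at 116 units, against at most 92.5 units in 2D7d. The second CASP1 probe was detected on 5 arrays and reached 419 units in PH7d replicate 1, against at most 81.6 units in 2D7d. The second IL1RAP probe was detected on 8 arrays and reached 144 units in MG7d replicate 2, against at most 110 units in 2D7d.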

How the results depend on the processing

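The members called are counts of 6 tested genes, so 1 gene moves them much. The alternatives also change how many of all genes are called. In xenograft against 2D7d this was 3412 as reported, 2424 without background correction, 3435 with median scaling and 1397 from the authors' processed values. Shares of all genes are not given beside the counts below, which therefore do not set the members apart from other genes. Against 2D7d, the count in MG7d was 2 as reported but 0 without background correction, 1 with an offset of 50, 0 from the authors' processed values and 0 without the detection filter, while in the xenografts (2) it was 1 under each of these 4. In PH4d (2) and PH7d (3) the authors' processed values gave 0 and 1. With only the groups compared in the fit it was 1 in MG4d (0), 0 in PH4d, 0 in PH7d and 4 in the xenografts, and with array weights 1 in MG4d, 1 in PH4d and 4 in the xenografts. In PH4d against MG4d (2) it was 1 without background correction, 1 from the authors' processed values, 0 with only the groups compared and 1 with array weights, and in PH7d against MG7d (3) it was 1 from the processed values and 1 with only the groups compared. Against the xenografts, PH7d (2) had 1 with no background correction, with the offset of 50, with median scaling, from the processed values, with only the groups compared and with array weights, PH4d (1) had 0 with only the groups compared, and MG7d (0) had 2 with only the groups compared and 2 with array weights. The replicate block gave 1 in MG4d against 2D7d and 1 in MG7d against xenograft, 3 in MG7d and 3 in the xenografts against 2D7d, and left the other counts as they were. Over all genes it called 3713 for MG4d, 3966 for MG7d, 825 for PH4d and 1114 for PH7d against 2D7d, where the fit without it called 2386, 2320, 485 and 684. By their deviations, 10 of 12 arrays correlated best with an array of the same number in another group, a hint from the data only, and the correlations of replicate differences ran up to 0.87, between PH4d and PH7d. MG4d and xenograft deviated in opposite ways (r = -0.12), and with the numbers of MG4d crossed in the block 0 members were called, as without it.

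Against 2D7d, leaving out each array in turn gave 0 to 0 for MG4d, 0 to 0 for MG7d, 0 to 3 for PH4d, 1 to 4 for PH7d and 0 to 1 for the xenografts. It gave 1 to 3 in PH4d against MG4d, 2 to 4 in PH7d against MG7d, 1 to 3 in PH4d against xenograft and 1 to 4 in PH7d against xenograft, and 0 to 0 in the comparisons not named. Alternatives chosen after seeing the data left out the same replicate of both polyHEMA groups, whose lone arrays are then assumed to vary like the other groups. With both replicates present, 38.2% of all genes in PH4d and 30.5% in PH7d lay at least 2-fold apart between them. No share of all genes called is given for the fits with arrays left out. Their member counts therefore do not set the members apart from other genes. Without both replicate 1 arrays, 6 were called in PH4d against MG4d, 6 in PH7d against MG7d and 3 in PH4d against xenograft. Without both replicate 2 arrays, 5 were called in PH4d and 5 in PH7d against 2D7d, 1 (CASP1) in PH7d against PH4d, 4 in PH7d against xenograft and 1 (CASP1) in the difference between the changes over time. Log2 differences of PH4d from 2D7d changed sign without PH4d replicate 1, alone or with that of PH7d, for IL1A (-0.071), IL18 (-0.28) and IL1RAP (-0.18), none of them called. Their ranges over single arrays left out were -0.071 to 0.37, -0.28 to 1.28 and -0.18 to 1.17, and that of CASP1 in MG7d was -0.12 (without 2D7d replicate 2) to 0.36. Beyond arrays left out, the cause of these changes was not tested.

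Median scaling moved the median of all genes to 0.18 for MG7d, 0.16 for PH4d, 0.21 for PH7d and 0.17 for the xenografts, and of the called genes 58.9% were then higher for MG4d, 72.6% for MG7d, 69.3% for PH4d, 73.4% for PH7d and 63.3% for the xenografts, against 46.9%, 51.2%, 58.4%, 62.1% and 52.9% as reported. Signals near background limit the folds of all members but IL18.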
